A study of Mus musculus with 4 samples.

Results

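A set of 10 genes of bone morphogenetic protein (BMP) signalling were followed from the receptor to its target genes in sorted mouse skin cells. They were 2 receptors (Bmpr1a and Bmpr2), 2 receptor-activated Smads (Smad1 and Smad5), 2 inhibitory Smads (Smad6 and Smad7) and the 4 Id genes (Id1, Id2, Id3 and Id4). The 10 genes were taken by gene symbol from the 12393 genes with a symbol of their own on the array, and each was represented by its brightest probe set over all 4 arrays. They have 20 probe sets in all. All 4 samples came from back skin of K14-GFP-actin mice at postnatal day 49, in the telogen (resting) phase of the hair cycle, and all mice carried this GFP-actin fusion, which the keratin 14 promoter expresses in basal keratinocytes. The total group (2 arrays) held all living GFP-positive cells. The bulge group (2 arrays) held GFP-positive cells with high surface α6 integrin and high CD34, which selects basal bulge cells. Bulge cells were not removed from the total sort, so each difference sets bulge basal cells against a mixture that contains them. Whether a replicate is 1 animal or a pool, and whether replicates came from separate animals, is not given in the labels, so p-values reflect the spread between samples alone, and this spread may be technical.

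BMP ligands bring together a type II receptor such as Bmpr2 and a type I receptor such as Bmpr1a, and the active pair phosphorylates Smad1 and Smad5. These enter the nucleus with Smad4 and switch on targets that include the Id genes and the genes of the inhibitory Smads, Smad6 and Smad7, which act back on the receptors. Id proteins have a helix-loop-helix domain without a DNA-binding region, and they bind E proteins and keep them off DNA. In skin, BMP signalling is known for keeping bulge stem cells quiescent in telogen.

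The 250 bases before the transcription start are shown for the 4 genes with higher bulge signals that the RefSeq promoter table holds (build GRCm38.p6). Entries were found for 8 of the 10 genes, in 10 windows, and Id1 and Smad7 are named only. Each is written 5′ to 3′ on the strand of its gene. Capitals mark matches, on either strand, to 3 motifs known as sites of Smad proteins. The first is GGCGCC, which reads the same on both strands. The second is GGAGCC, which reads GGCTCC on the opposite strand. The third, the classical Smad box, is CAGAC, which reads GTCTG on the opposite strand.
Id2, chr12:25096093-25096342, minus strand: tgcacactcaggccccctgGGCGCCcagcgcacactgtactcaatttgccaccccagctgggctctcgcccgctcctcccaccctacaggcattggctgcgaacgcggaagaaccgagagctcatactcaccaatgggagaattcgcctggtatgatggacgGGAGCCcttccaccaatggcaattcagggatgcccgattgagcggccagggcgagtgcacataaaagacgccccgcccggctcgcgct
Id3, chr4:136143572-136143821, plus strand: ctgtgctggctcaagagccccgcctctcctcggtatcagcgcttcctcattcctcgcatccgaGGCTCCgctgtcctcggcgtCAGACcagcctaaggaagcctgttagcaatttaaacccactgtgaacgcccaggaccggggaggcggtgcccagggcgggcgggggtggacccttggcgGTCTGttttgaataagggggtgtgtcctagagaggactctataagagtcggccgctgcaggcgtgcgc
Id4, chr13:48260866-48261115, plus strand: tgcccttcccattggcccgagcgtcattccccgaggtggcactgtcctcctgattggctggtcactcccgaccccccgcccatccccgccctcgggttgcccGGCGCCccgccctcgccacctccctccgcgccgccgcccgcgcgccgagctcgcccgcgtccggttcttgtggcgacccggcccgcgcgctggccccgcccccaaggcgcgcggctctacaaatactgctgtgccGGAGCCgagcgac
Smad6, chr9:64022060-64022309, minus strand: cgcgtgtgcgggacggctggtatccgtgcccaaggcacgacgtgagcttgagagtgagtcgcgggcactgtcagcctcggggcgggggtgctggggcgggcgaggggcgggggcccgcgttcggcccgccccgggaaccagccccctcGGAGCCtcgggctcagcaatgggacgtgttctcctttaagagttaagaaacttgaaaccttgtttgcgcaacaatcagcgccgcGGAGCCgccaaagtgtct

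GGAGCC was present in all 4 of these windows, with 2 matches in Smad6, and in 26.0% of 32851 RefSeq windows of the same length. GGCGCC was present in Id2 and Id4 and in 9.59% of all windows, and CAGAC was present in Id3, with 2 matches, and in 42.2% of all windows. These windows are rich in G and C, from 62.8% in Id2 and Id3 to 75.6% in Id4, against a median of 52.4% over all windows. Among the 9178 windows with at least 60% G and C, GGAGCC was present in 46.5%, GGCGCC in 26.1% and CAGAC in 38.6%. The E box CANNTG, the site of E proteins, had 1 match in Id2 and 0 in Id3, Id4 and Smad6. It was present in 66.2% of all windows and in 51.8% of those with at least 60% G and C. Of the other windows, those of Bmpr1a and Bmpr2 and 1 of the 3 of Smad5 also held GGCGCC, 1 other Smad5 window held GGAGCC and CAGAC, and the Smad1 window held none of the 3 Smad motifs. A match describes the letters of the window and is no sign of binding.

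The deposited signals are on a linear scale, and each array has a mean of 500.0 once the top and bottom 2% are trimmed. The number of arrays limits the precision. A background level of 150.1 was set from olfactory, vomeronasal and taste receptor genes, which skin is not expected to express. Cd34, used in the gate, had signals of 844 and 1144 on total and 15697 and 14034 on bulge arrays, while Itga6, which encodes the α6 integrin of the gate, had 5642 and 3491 on total and 3312 and 1693 on bulge arrays. The group labels thus have their counterpart in Cd34 and not in Itga6. Krt14, the gene whose promoter drives the reporter, was bright on all 4 arrays (16254 to 25126).

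The 4 Id genes and both inhibitory Smads had higher signals on both bulge arrays than on both total arrays, while the receptors and receptor-activated Smads overlapped between the groups. So 6 of the 10 genes were higher without overlap and 0 were lower, where 18% of all 12393 genes were higher without overlap and 20.5% were lower. Among the 7247 genes with a group mean above background, 20.7% were higher without overlap. The median log2 difference, bulge minus total, was 2.13 for the 4 Id genes, 0.07 for Smad1 and Smad5 and -0.22 for the receptors, beside -0.02 over all genes. For the 2 inhibitory Smads it was 1.54 as measured and 0.87 with values under the background level set to it, since Smad6 was below that level on both total arrays. The 6 genes without overlap are also those with an unadjusted p under 0.05 in limma (6 of 10 higher, beside 5.18% of all genes higher).

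**Figure D1:**
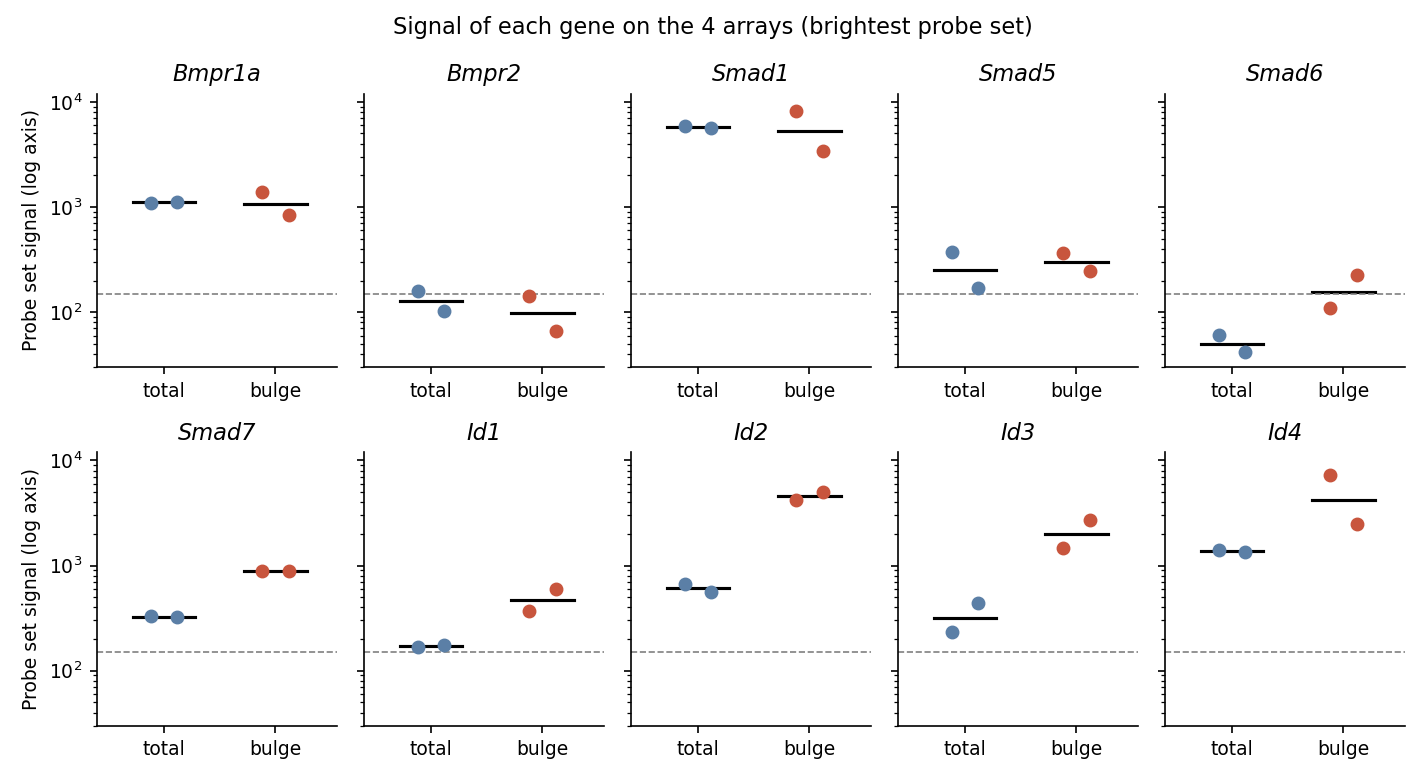
Signal of the brightest probe set of each of the 10 genes on a log axis, 1 point per array (total in blue, bulge in red), with the mean of log2 signals as a bar and the background level of 150.1 as a dashed line. The bulge points lie above the total points for Smad6, Smad7 and the 4 Id genes, and the groups overlap for Bmpr1a, Bmpr2, Smad1 and Smad5.

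In the limma fit on group alone, adjusted over all genes by Benjamini-Hochberg, 0 of the 10 genes and 0% of all genes passed an adjusted p of 0.05. In that fit 1297 genes (10.5%) had an unadjusted p under 0.05, and the smallest adjusted p over all genes was 0.0729. In a limma fit whose variance follows the signal intensity (the trended fit), 1 of the 10 genes passed, Id2, beside 1.08% of all genes (134 genes) in either direction and 0.557% higher. With a filter on dim genes Id2 again was the 1 gene that passed (adjusted p of 0.0211), of the 8 of the 10 genes kept, beside 2.75% of 7119 genes in either direction and 1.29% higher. The verb rose refers to this trended fit. An exact permutation test of 2 arrays against 2 cannot go below a two-sided p of 0.333, so none is given for single genes.

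Bmpr1a, the type I receptor, had signals of 1102 and 1121 on total and 1380 and 831 on bulge arrays. The bulge arrays lay on either side of the total arrays, and the log2 difference was -0.05 (95% interval -1.14 to 1.04, adjusted p of 0.987 in limma). The interval leaves room for about a doubling or halving. Bmpr1a has 5 probe sets, all above background on all 4 arrays, with differences from -0.73 to 0.18. In 4 of them the groups overlapped, and in the other, with total signals of 801 and 817 and bulge signals of 736 and 324, both bulge arrays were lower. The suffix of the brightest Bmpr1a probe set marks probes that match more than 1 transcript. Bmpr2, the type II receptor, was near background, with signals of 159 and 103 on total and 143 and 66.8 on bulge arrays. It was above the background level on 1 of 4 arrays, and no fold is given for it.

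Smad1 was bright and had signals of 5912 and 5637 on total and 8271 and 3421 on bulge arrays. The bulge arrays differed 2.42-fold from each other and lay on either side of the total arrays, so the difference of -0.12 (95% interval -1.48 to 1.24, adjusted p of 0.982 in limma) had no stable direction. Without bulge replicate 2 it was 0.52 and without bulge replicate 1 it was -0.75. The other Smad1 probe set was higher without overlap (difference of 0.82) but below background on all 4 arrays. Smad5, its close relative in the same step, had signals of 373 and 170 on total and 365 and 247 on bulge arrays, both of which lay between the total arrays. Its difference was 0.25 (95% interval -1.11 to 1.61, adjusted p of 0.953 in limma). The other Smad5 probe set was lower without overlap (difference of -0.51) but below background on all 4 arrays.

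Smad7, an inhibitory Smad that acts on BMP and TGF-β receptors alike, had signals of 331 and 323 on total and 893 and 885 on bulge arrays. Replicates differed by 1.03-fold in the total group and 1.01-fold in the bulge group, and the lowest bulge signal was 2.67 times the highest total signal. The log2 difference was 1.44 ± 0.37 (SE; 2.72-fold, 95% interval 0.52 to 2.37), with an adjusted p of 0.231 in limma and 0.121 in the trended fit. It did not pass in either fit; limma moderates each gene's spread towards that of all genes. Smad6, an inhibitory Smad that acts mainly on BMP signalling, had signals of 60.5 and 41.7 on total and 109 and 227 on bulge arrays. It was below background on both total arrays and above it on 1 of 2 bulge arrays. Its measured difference of 1.64 ± 0.52 (SE; 95% interval 0.33 to 2.96, adjusted p of 0.336 in limma) is therefore bounded at least 1.04-fold higher, and once values under the background level were set to it, the difference was 0.30. Each of these genes has 1 probe set.

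Id2 rose in the bulge group. Its signals were 662 and 564 on total and 4196 and 4988 on bulge arrays, so the lowest bulge signal was 6.33 times the highest total signal. The log2 signals were 9.26 ± 0.16 (SD, n = 2) and 12.16 ± 0.18 (SD, n = 2). The difference was 2.90 ± 0.38 (SE; 7.48-fold, 95% interval 1.94 to 3.87), with an adjusted p of 0.0865 in limma and 0.0297 in the trended fit, and it was the 91st highest of 12393. Over all alternatives its adjusted p ran from 8.2e-05 to 0.296. In the trended fit the call was lost without total replicate 1 (adjusted p of 0.167) and without total replicate 2 (adjusted p of 0.228), while the difference stayed between 2.78 and 3.03 without any 1 array.

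Id3 had the next largest difference of the 10 genes. Its signals were 231 and 441 on total and 1465 and 2685 on bulge arrays. Replicates differed by 1.91-fold and 1.83-fold, and the lowest bulge signal was still 3.33 times the highest total signal. The difference was 2.64 ± 0.54 (SE; 6.21-fold, 95% interval 1.27 to 4.0), with an adjusted p of 0.155 in limma and 0.0765 in the trended fit. It passed in the trended fit without bulge replicate 1 (adjusted p of 0.0219), and its range without any 1 array was 2.17 to 3.10.

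Id4 was bright in both groups, with signals of 1407 and 1357 on total and 7186 and 2498 on bulge arrays. The bulge arrays differed 2.88-fold from each other, and the lower one was 1.78 times the highest total signal. The difference was 1.62 ± 0.60 (SE; 3.07-fold, 95% interval 0.10 to 3.13), with an adjusted p of 0.436 in limma. Its size rested on bulge replicate 1, since it was 0.85 without that array and 2.38 without bulge replicate 2, where it passed the trended fit (adjusted p of 0.0173). Id1 had signals of 170 and 176 on the total arrays, just above the background level, and 370 and 593 on the bulge arrays. Its difference was 1.44 ± 0.42 (SE; 2.72-fold, 95% interval 0.37 to 2.51), with an adjusted p of 0.296 in limma. In whole sorted populations, more cells with a transcript and more transcript per cell cannot be told apart, and this holds for each of these genes.

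The other probe sets of the Id genes had the same direction. Id2 has 3 probe sets and Id4 has 3, and in all 6 both bulge arrays lay above both total arrays. The other Id2 probe sets gave 1.95 and 1.26, with bulge signals of 1348 and 392 for 1 and 664 and 208 for the other, and the other Id4 probe sets gave 1.05 and 1.96. Probe sets of 1 gene share their RNA and are no independent evidence. Over all 20 probe sets, 11 were higher without overlap, 2 were lower and 7 overlapped, where 17.1% of all 20380 probe sets with 1 symbol were higher and 20.9% lower. Among the 16 above background on 2 or more arrays these numbers were 9, 1 and 6, where 18.8% of 10409 such probe sets were higher and 22.1% lower.

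**Figure D2:**
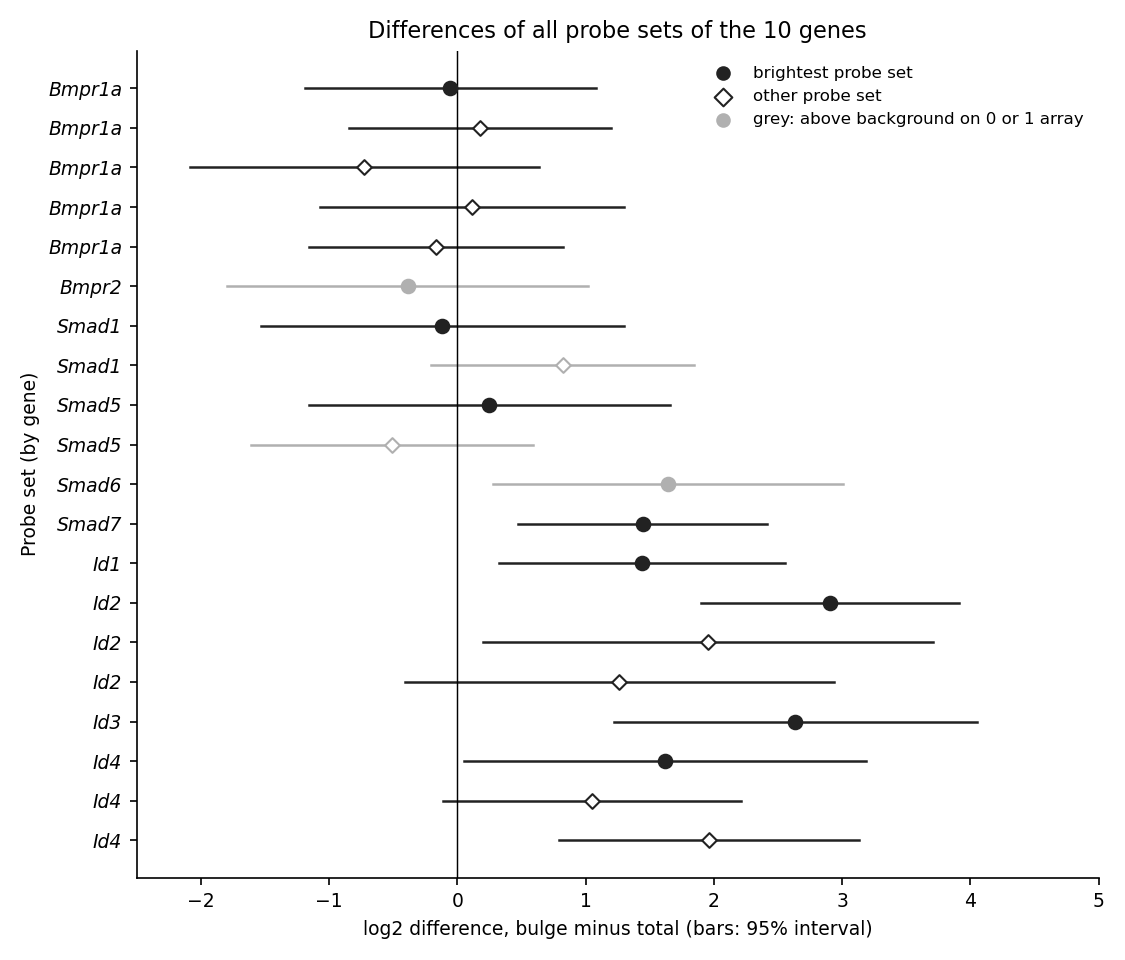
Log2 difference, bulge minus total, of all 20 probe sets of the 10 genes, fitted with limma over all probe sets, with 95% intervals as bars. Filled circles are the brightest probe set of a gene, diamonds the others, and grey marks probe sets above background on 0 or 1 array; the 8 Id probe sets lie between 1.05 and 2.90, and the 5 of Bmpr1a between -0.73 and 0.18.

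Other receptors and co-receptors of the BMP and TGF-β families were measured for 13 of 16 listed genes. In the trended fit 1 of the 13 rose, 0 fell and 12 did not pass, beside 0.557% of all genes higher. The median difference was 0.43. Bambi, a receptor-like decoy that lacks a kinase domain, rose at least 1.95-fold, from 7.91 and 13.1 on the total arrays, both below background, to 266 and 321 on the bulge arrays. Without overlap, 8 of the 13 were higher and 0 lower, beside 18% of all genes higher and 20.5% lower, and 5 of the 13 were above background on all 4 arrays. Of the 8, Acvr1c, Acvr2b and Amhr2 were below background on all 4 arrays, and the second probe set of Acvr2a was lower without overlap, with 180 and 155 on total and 109 and 145 on bulge arrays.

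The other Smads, all 4 measured, showed no call and no lack of overlap. Smad4, the common partner of the receptor-activated Smads, had signals of 4221 and 3684 on total and 5114 and 3484 on bulge arrays, and a difference of 0.10 (95% interval -0.94 to 1.13). Smad2, which serves TGF-β and activin receptors, had a difference of -0.18 (95% interval -1.13 to 0.77). Smad3 and Smad9 were below background on all 4 arrays. Among 15 measured regulators of Smads of 19 listed, 0 passed in either direction, with a median of 0.27. Without overlap, 3 were higher and 2 lower, beside 18% of all genes higher and 20.5% lower. The brightest, the phosphatase gene Ctdsp2 and the immunophilin gene Fkbp1a, whose product binds type I receptors, had differences of 0.25 and 0.27 with overlapping groups. Of the 4 other probe sets of Fkbp1a, 2 were higher without overlap (differences of 0.26 and 0.59) and 2 overlapped, and of the 2 others of Ctdsp2, 1 was lower without overlap (above background on 1 array) and 1 overlapped.

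E proteins, the partners that Id proteins bind, were measured for all 3 listed genes, and 0 passed. Tcf12 had signals of 2015 and 1579 on total and 4543 and 4221 on bulge arrays, higher without overlap, with a difference of 1.30 ± 0.38 (SE; adjusted p of 0.302 in limma). The groups overlapped for its other probe set, which gave 0.33. Tcf4 had a difference of 0.27 with overlapping groups, and of its 5 other probe sets 3 were higher without overlap, 1 overlapped and 1, below background on all 4 arrays, was lower.

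Other genes known as BMP targets were mixed, with 9 of 10 measured, 0 passing the trended fit and a median of -0.18. Without overlap, 1 was higher and 2 lower, beside 18% of all genes higher and 20.5% lower. Nfatc1, a transcription factor of bulge stem cells, had signals of 530 and 438 on total and 1860 and 1510 on bulge arrays, and a difference of 1.80 ± 0.39 (SE; 3.48-fold, adjusted p of 0.170 in limma). Gata3, a transcription factor of the inner root sheath and of T cells, went the other way, with 1695 and 1212 on total and 361 and 345 on bulge arrays, and a difference of -2.02 ± 0.39 (SE; 4.07-fold lower, adjusted p of 0.142 in limma). With the filter on dim genes Gata3 passed (adjusted p of 0.0494 in limma), where 2.75% of 7119 genes passed in either direction. Foxn1, the other gene lower without overlap, was below background on all 4 arrays. Msx1, Msx2 and Dlx3 had differences of -0.20, 0.34 and 0.47, and each was above background on 0 or 1 array. Among 15 measured ligands and antagonists of 18 listed, 3 rose (Grem1, Fstl1 and Gdf10), 0 fell and the other 12 missed the threshold. Grem1 had signals of 447 and 528 on total and 7638 and 5628 on bulge arrays. Fstl1 had 141 and 198 on total and 2889 and 2034 on bulge arrays. It was below background on total replicate 1, so its fold is a lower bound. Gdf10 rose at least 1.39-fold, from 4.98 and 4.44 on the total arrays, both below background, to 281 and 155 on the bulge arrays. By lack of overlap, 5 of the 15 were higher and 3 lower, beside 18% of all genes higher and 20.5% lower. Over all genes, 0.557% rose in the trended fit. Bmp4, a ligand gene, had signals of 620 and 1055 on total and 109 and 18.6 on bulge arrays, both below background. It was thus at least 5.39-fold lower and missed the threshold (adjusted p of 0.0989 in the trended fit and 0.171 in limma on group alone).

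**Figure D3:**
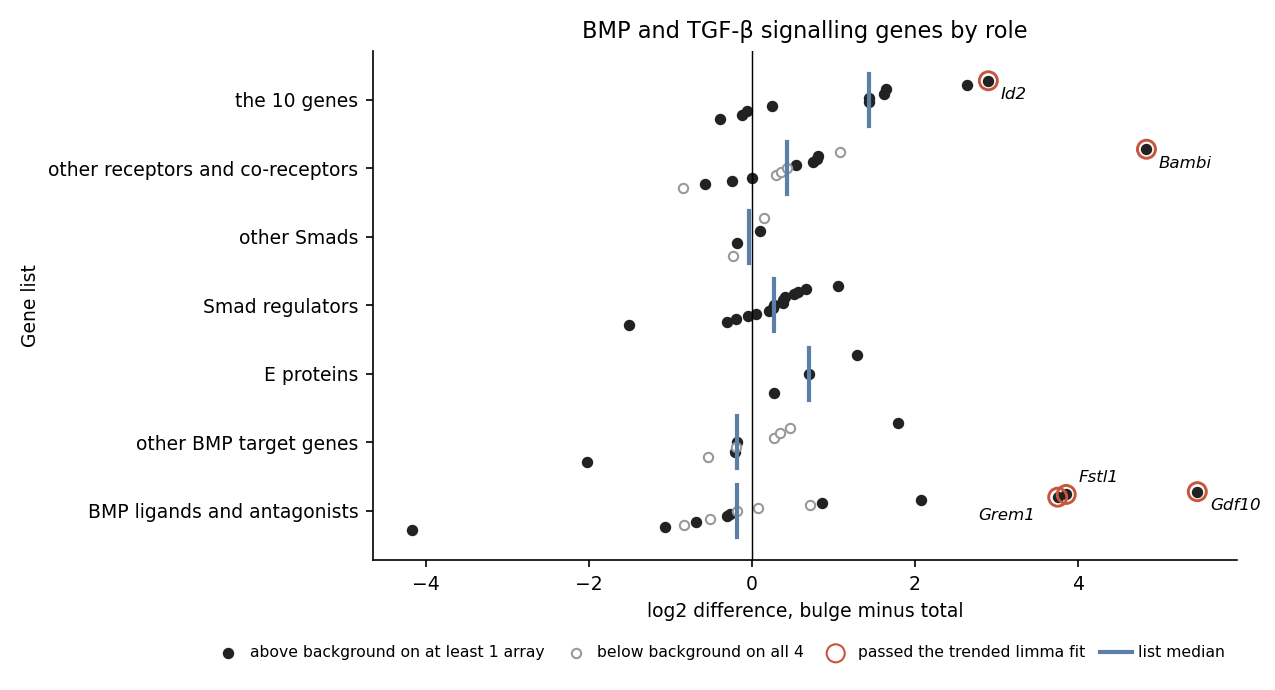
Log2 difference, bulge minus total, of each measured gene by role, with the list median as a blue line, open points below background on all 4 arrays and red rings around genes that passed the trended limma fit. The median of the 10 genes is 1.44 (0.87 with values under the background level set to it), against 0.43 for other receptors, -0.04 for other Smads and 0.27 for Smad regulators.

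Several of the genes described are also known in other cell types, so marker lists were measured on the same arrays. Id2 is strongly expressed in Langerhans cells and some lymphocytes. All 14 measured leukocyte markers were lower without overlap in the bulge group, beside 20.5% of all genes, and 4 fell in the trended fit. Of the 14, 11 were above background on any array, while Cd2, Itgam and Fcer1g were below it on all 4. The summed signal was 10976 and 13373 on total and 1286 and 1639 on bulge arrays. On bulge arrays, 9 of the 14 were below background on both, Ptprc and Cd3e among them. Csf1r (236 and 300), Cd74 (177 and 184) and H2-Aa (305 and 506) were above it on both, and the Langerhans cell marker Cd207 (129 and 215) and H2-Ab1 (120 and 188) on 1. Id1, Id3 and Smad6 are prominent in endothelium. Of 11 endothelial markers, 2 were above background on any array, the summed signal was 894 and 556 on total and 848 and 696 on bulge arrays, and the defining genes Pecam1 and Cdh5 were below background on all 4. These sums come mostly from markers below background. Kdr was above background on 3 arrays (215 and 156 on total, 166 and 131 on bulge) and Flt1 on 1, while Egfl7 and Vwf were higher and Cldn5 lower without overlap, all 3 below background on all 4 arrays.

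Of 10 measured fibroblast and dermal papilla markers, 2 were above background on any array, with summed signals of 845 and 659 on total and 4442 and 1921 on bulge arrays. The collagen gene Col1a2 alone gave 3852 and 1541 of the bulge sums, and Col1a1 had 117 and 71.6 on total and 352 and 94.2 on bulge arrays, above background on 1. The other 8, Pdgfra and Dcn among them, were below background on all 4 arrays. Melanocyte markers had summed signals of 2850 and 2049 on total and 7154 and 3348 on bulge arrays. Mitf, named after its values were seen, gave 6125 and 2460 of the bulge sums, and Slc45a2, with 117 and 108 on total and 175 and 163 on bulge arrays, was also higher without overlap. The other 5 of the 7 measured, with Dct and Tyrp1 among them, were lower without overlap, beside 20.5% of all genes. Of the 7, 0 passed the trended fit. The part of the leukocyte, endothelial, fibroblast and melanocyte lists in the Id and Smad differences was not tested. Of 11 bulge markers, 10 were higher without overlap, beside 18% of all genes, and 6 rose in the trended fit, beside 0.557%. Cd34 is in both counts, and since the bulge group was sorted on it, its result was fixed beforehand. Basal keratinocyte markers had a median of -0.05.

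Suprabasal and cell cycle genes give the remaining composition of the 2 sorts. The 7 measured suprabasal markers had a median of -0.47 with summed signals of 40218 and 61304 on total and 22451 and 62493 on bulge arrays, sums that are mostly Krt10, Lor and Krtdap. Without overlap, 1 was higher and 2 lower, beside 18% of all genes higher and 20.5% lower. In the trended fit 1 fell: Krt1, an early differentiation keratin, from 8379 and 9221 on total to 699 and 1118 on bulge arrays (adjusted p of 0.0297). Of 14 cell cycle genes, 13 were lower and 0 higher without overlap, beside the 20.5% and 18% of all genes. Their median was -1.52, and 0 passed the trended fit. The part of either list in the differences of the 10 genes was not tested.

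**Figure D4:**
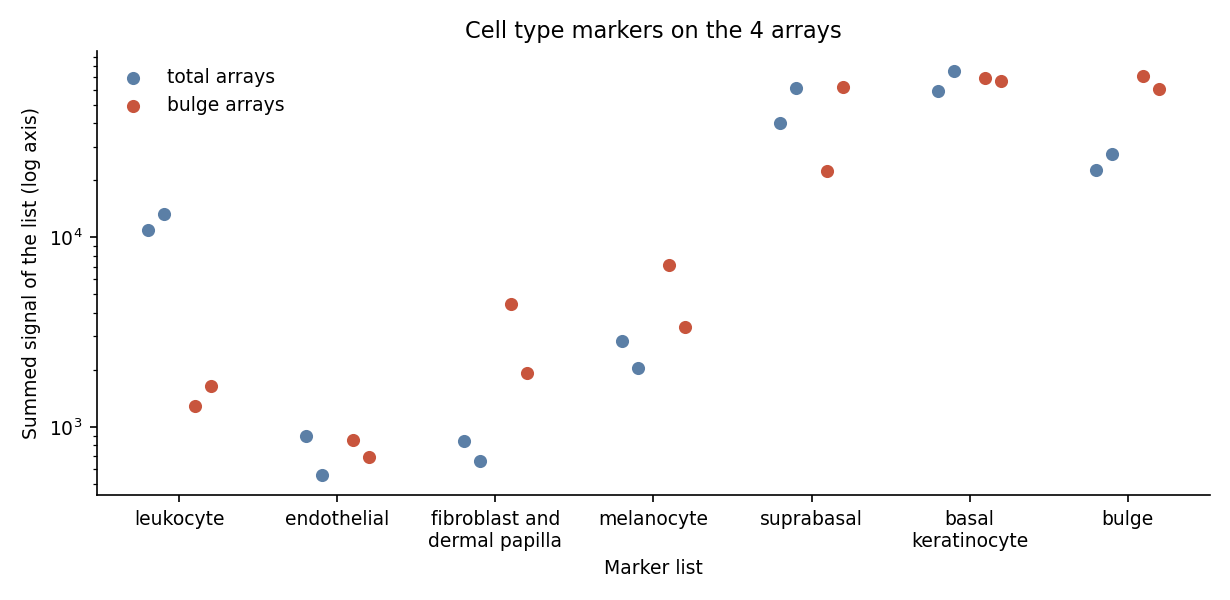
Summed signal of each marker list on a log axis, 1 point per array (total in blue, bulge in red). Leukocyte sums are 1286 and 1639 on the bulge arrays against 10976 and 13373 on the total arrays, while endothelial sums, with 9 of 11 markers below background on all 4 arrays, overlap between the groups.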

How the data were processed

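RNA (200 ng) of 4 sorted samples was amplified with oligo-dT T7 priming and hybridised to Affymetrix arrays, per the labels' protocols. The values deposited by the authors are linear intensity values, 1 per probe set and array. Per the submitters' processing notes, GCOS, R 2.15.1, affy 1.36 and RMA were used, with no role given. The scaling to an equal trimmed mean is that of MAS 5.0 type software and not of RMA, and which tool made the values is not given in the sources used here. Such values keep wide scatter near background.

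Log2 of the signal was taken here. Symbols came from the platform annotation, updated by Entrez ID through RefSeq (20351 of 20380 probe sets with 1 symbol matched). The 691 probe sets with several symbols, 1555 with none and 64 controls were left out. The background level was the 95th percentile over 67 receptor genes. A gene below it on every array of the dimmer group has a fold only as a lower bound, against that level. For a gene below it on 1 such array, that array was raised to the level. Such bounds leave out sampling error.

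The test was limma 3.58.1 in R 4.3.3 on group alone over all genes. It was checked on simulated data with independent noise of the same spread in both groups. That check does not cover unequal spread or shared deviations. The log2 difference between replicates had an SD of 0.553 in the total and 0.917 in the bulge group. The members and lists were chosen with earlier results of these data known. All members were named, and from each other pathway list up to 4 genes called by the trended fit in each direction, or else its 2 brightest. Msx1, Msx2, Dlx3, Foxn1, Smad3, Smad9, Pmepa1, Bmp4, the receptor genes with no call and the marker genes fall outside this rule. They were chosen after their values were seen. Protein sequences were not used here. The other settings tried were array centring, quantile normalization, log2 of signal plus 32, trended or robust variance, a filter on dim genes, a background floor, other probe set rules, a replicate block, a threshold of 0.01 and each array left out.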

Additional observations from a re-analysis of the deposited data

How the results depend on the processing

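Of 198 values of the 10 genes under other settings, 173 kept their direction and side of the threshold, 12 passed it only in the other setting and 13 changed direction, all of the latter in Bmpr1a, Bmpr2, Smad1 and Smad5. Since limma on group alone called 0 of the 10, no call could be lost. The 4 Id genes, Smad6 and Smad7 kept their direction in every setting that gave a value. With array medians centred Bmpr1a had a difference of 0.0024, and with the mean of all probe sets Smad1 had 0.35 and Smad5 -0.13. Without 1 array, the range was -0.42 to 0.31 for Bmpr1a, -0.94 to 0.16 for Bmpr2, -0.75 to 0.52 for Smad1 and -0.32 to 0.81 for Smad5 (-0.034 without bulge replicate 1). Centring and quantile normalization moved the median of all genes by less than 0.1. The filter on dim genes removed Bmpr2 and Smad6.

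Over the whole table, limma called 0 genes, 134 with an intensity trend and 196 with the filter on dim genes. That filter tests fewer genes and also fits the variances anew. The count was 37 with log2 of signal plus 32 and 5 with the background floor. The cause of these changes in the count was not tested. Without 1 array it was 0, and with the trend 0 without either total array, 388 without bulge replicate 1 and 350 without bulge replicate 2. The count of the 10 genes called was 0, and 1 with the trend, with the filter or with log2 of signal plus 32, Id2 each time. Without 1 array it was 0, and with the trend 0 without either total array and 2 without either bulge array. With a replicate block it was 0 of 10 and 0 of all genes. With a replicate block and a trend it was 5 of 10 (the 4 Id genes and Smad7) and 917 of all genes. No label says that the replicate numbers pair the arrays; same-numbered arrays deviated together, with r = 0.579 over 7247 genes, which are not independent replicates. Signal near background limits Smad6, Bmpr2 and the total arrays of Id1. With 1 array left out, the lone array of its group is assumed to vary like the intact pair.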

Other observations

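The 3 Id2 probe sets differed in how the bulge arrays compared with each other. The brightest was 1.19-fold higher on bulge replicate 2, while the other 2 were 3.44-fold and 3.19-fold higher on bulge replicate 1. All 3 probe sets of Id4 were higher on bulge replicate 1, by 2.88-fold, 1.64-fold and 1.58-fold, whereas Id1, Id3 and Smad6 were higher on bulge replicate 2, by 1.6-fold, 1.83-fold and 2.09-fold. The spread between bulge arrays thus did not run 1 way for the genes that were higher in that group.

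Pmepa1, a membrane protein gene known as a TGF-β target and Smad inhibitor, was the Smad regulator with the lowest difference. Its signals were 221 and 154 on total and 60.3 and 69.6 on bulge arrays, which were below background, and it did not pass the test. It was chosen after its values were seen.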
